A study of Saccharomyces pastorianus with 18 samples.

Results

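The genes described here encode the proteins of the cytosolic ribosome of lager brewing yeast, Saccharomyces pastorianus, whose hybrid genome has chromosomes of both S. cerevisiae and S. eubayanus. They were taken by name, as every gene called RPL, RPS or RPP with a number and an optional A or B, which gave 252 of the 11979 genes counted. Of these, 138 were S. cerevisiae copies and 114 were S. eubayanus copies, and summing the copies of a name left 138 names. RPP1 has such a name but encodes a subunit of ribonuclease P, an enzyme that processes transfer RNA. It was kept apart, so that 137 ribosomal protein genes remained, 81 of the large subunit (5 of them proteins of the stalk) and 56 of the small subunit. Of the 137 genes, 118 formed 59 pairs of A and B paralogs, and 19 had no such partner.

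A eukaryotic ribosome has a small subunit that decodes the messenger RNA and a large subunit that joins amino acids, each built of ribosomal RNA and many proteins that are needed in equal amounts. In yeast most of these proteins are encoded by a pair of paralogs left by an ancient genome duplication, and most of the genes carry an intron, which few other yeast genes do. Growing yeast spends a large part of its transcription and splicing on these genes, and their messenger RNA is known to fall when nutrients run short or growth slows.

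RNA was sequenced from 6 groups of 3 cultures. A pair of mutant strains was used, W34/70 9.7 and CBS1538 11.1, each named after its lager parent and each raised after exposure to radicicol, an inhibitor of the chaperone Hsp90, with selection on toxic analogues of phenylalanine. Each mutant is a single isolate, and no library titled as a parental strain was used, so by their titles all groups share that history. The groups were W34/70 9.7 in minimal medium, on day 4 and on day 2 of wort fermentation, and CBS1538 11.1 in minimal medium, on day 4 and on day 2. Minimal medium held ammonium sulfate and no amino acids, and its cultures were harvested in exponential growth at 20 °C, whereas the zinc-supplemented wort was fermented at 13 °C without shaking, so medium, temperature and growth phase changed together. The CBS1538 11.1 day 2 libraries carry the mutant's name in the title and the column name but the parental strain in the strain field, so every CBS1538 11.1 value on day 2 is that of libraries labelled in both ways.

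Total counts were 5266324 to 19467656 per library. S. eubayanus chromosome VII had 1465 counts in W34/70 9.7 day 2 replicate 2 and 1417 in day 4 replicate 1, where the strain's other libraries had 284445 to 396506. The 13 ribosomal protein genes on that chromosome had 29 and 48 counts in these libraries, against 22996 to 96725 in the others. The 18 genes on S. cerevisiae chromosome XII were also at their lowest shares of the ribosomal counts there, 5.62% and 5.32%, against 7.93% to 10.1% in the other libraries of the strain.

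The strains also differed in which copies they hold. A copy was taken as held where at least 5 of the 10 nearest other genes averaged at least 1 CPM, taken for this rule on plain library totals. Elsewhere, unless stated, CPM is the count relative to the scaled library size (TMM). W34/70 9.7 held all 137 S. cerevisiae copies and 109 of the 113 S. eubayanus copies, and CBS1538 11.1 held 27 S. cerevisiae and 112 S. eubayanus copies. For 24 of the 137 genes the table has an S. cerevisiae row only, and 20 of the 137 were therefore not held by CBS1538 11.1 in this table. RPL40B, RPL13B, RPS22B, RPS16A and RPP1B were among them, and a missing row is not evidence that the strain lacks the gene.

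Ribosomal protein genes took their largest share of the counts in minimal medium in W34/70 9.7. There they took 19, 23.7 and 18.6% of a library's counts, against 9.09, 12.1 and 8.69% on day 4 and 10.5, 9.57 and 10.4% on day 2. The 3 minimal medium libraries lay above all 6 wort libraries of the strain. In CBS1538 11.1 the share was 9.34, 11 and 8.88% in minimal medium, 6.62, 4.76 and 5.24% on day 4 and 9.48, 6.27 and 8.94% on day 2. The minimal medium libraries of that strain lay above the day 4 libraries but overlapped the day 2 libraries. A share of counts says nothing of the amount of RNA per cell, and in a culture fewer cells and less RNA per cell cannot be told apart. Since 20 genes lack a usable row in CBS1538 11.1, its shares and those of W34/70 9.7 are not on the same footing.

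**Figure D1:**
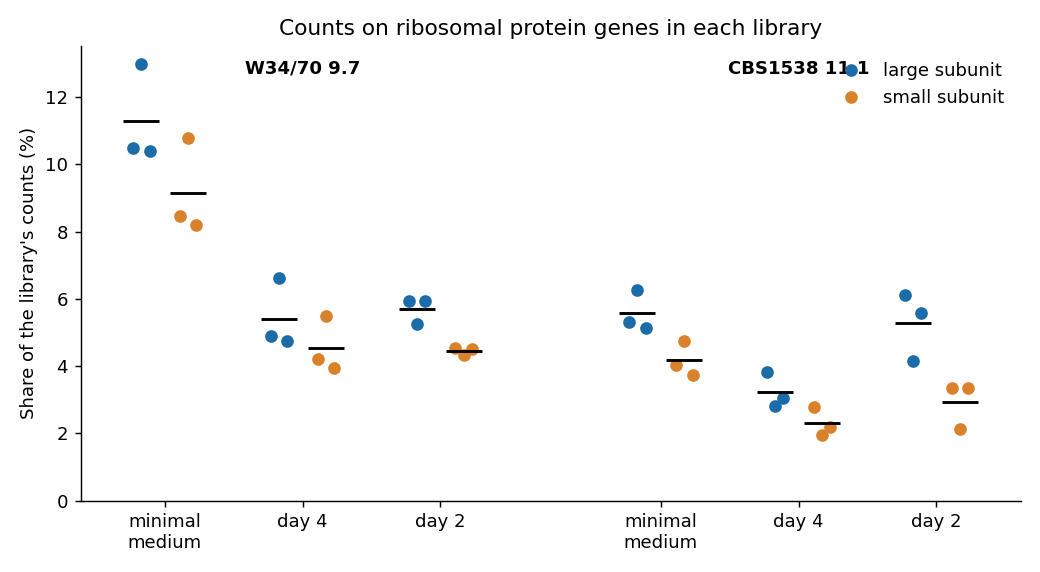
Share of each library's counts on large subunit (blue) and small subunit (orange) genes, in percent, for the 6 groups; points are libraries and bars are means of 3. The W34/70 9.7 minimal medium libraries stand above all others for both subunits, and the ratio of the large to the small subunit share is highest in CBS1538 11.1 on day 2.

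The large subunit took more counts than the small subunit in every library. For W34/70 9.7 large over small subunit counts were 1.24, 1.2 and 1.27 in minimal medium, 1.16, 1.21 and 1.21 on day 4 and 1.3, 1.22 and 1.32 on day 2. In CBS1538 11.1 they were 1.32, 1.32 and 1.37 in minimal medium, 1.38, 1.43 and 1.4 on day 4 and 1.82, 1.96 and 1.66 on day 2. The 3 CBS1538 11.1 day 2 libraries, those with the doubtful strain label, were above the other 15 libraries. RPL3 and RPL5, described below, were the large subunit genes with the highest counts per kilobase in that strain.

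Levels between genes were compared only per kilobase of the table's gene span, and spans include introns. Among the W34/70 9.7 libraries the highest were RPL41A with 14375, RPL41B with 12220.0 and RPS31 with 9998 CPM per kilobase, as means of 9 libraries. RPL41 is the shortest ribosomal protein, and RPS31 is a small subunit protein made as a fusion with ubiquitin. In CBS1538 11.1 the highest were RPL3 with 4920, RPL5 with 4067 and RPL10 with 3757 CPM per kilobase. RPL41A and RPL41B have no S. eubayanus row, and CBS1538 11.1 had at most 0.237 and 5.56 CPM on them, so they are not compared between strains. The S. cerevisiae spans are chromosome IV bases 130407 to 130484 for RPL41A and 221724 to 221801 for RPL41B, and chromosome XII bases 498947 to 499405 for RPS31, on build R64.

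In minimal medium most ribosomal protein genes were higher than on day 4 of wort in both strains. In W34/70 9.7, 117 of the 137 genes were higher and 2 were lower at an adjusted p under 0.05 with edgeR's quasi-likelihood test, where 26.1% and 28.6% of all 6633 names tested were higher and lower. The median log2 change of the 137 genes was 1.13, against -0.01 over all names detected in the strain. In CBS1538 11.1, 89 of 137 were higher and 1 was lower, where 25.2% and 23% of all names were, and among the 117 genes the strain holds the counts were 86 and 1. Of the 5485 names detected in that strain, 29.9% and 27.3% were higher and lower. The median there was 0.94 over the held genes and 0.04 over all names detected in the strain. Of the 117 genes, 79 were higher in both strains, and the share of all names higher in both was not computed.

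**Figure D2:**
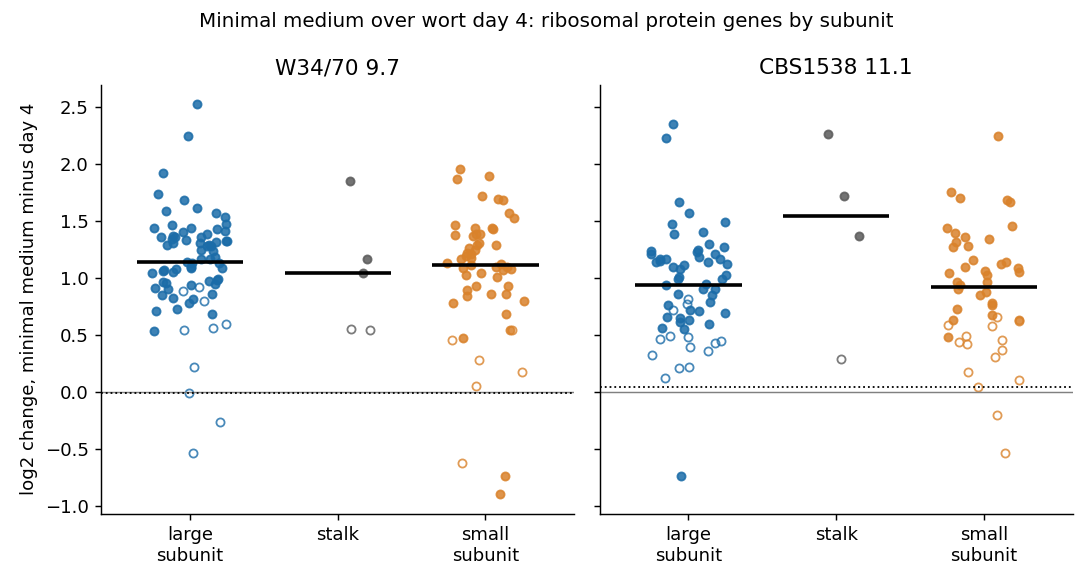
log2 change of each ribosomal protein gene, minimal medium minus day 4, in W34/70 9.7 (left, 137 genes) and CBS1538 11.1 (right, 117 held genes), by class; filled points have an adjusted p under 0.05, bars are medians, and the dotted line is the median over all names detected in the strain. Large and small subunit genes have close medians, and a few genes of each stand below 0.

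The increase was spread over both subunits. For W34/70 9.7, 69 of 81 large subunit genes and 48 of 56 small subunit genes were higher, with medians of 1.13 and 1.12. In CBS1538 11.1, 51 of 67 large and 35 of 50 small subunit genes among those held were higher, with medians of 0.94 and 0.92. RPL9A, a large subunit protein near the stalk base, had 1711, 2473 and 1714 CPM in the W34/70 9.7 minimal medium libraries, against 362, 412 and 254 on day 4. The groups did not overlap, and the log2 change was 2.52 (SE 0.25, adjusted p = 4.47e-07). RPS12, a small subunit protein, had 2844, 4710.4 and 2775 CPM in minimal medium, against 870.0, 1042 and 751 on day 4 in W34/70 9.7, a change of 1.96 (SE 0.30, adjusted p = 4.51e-05) in log2. In CBS1538 11.1 RPS12 had 1218, 1966 and 1581 in minimal medium, against 626, 411 and 381 on day 4, and its log2 change was 1.75 (SE 0.30, adjusted p = 0.000128). All 3 libraries in minimal medium were above all 3 on day 4 in both strains. RPL41A, which CBS1538 11.1 does not hold, had 1512, 2625 and 1415 CPM in minimal medium, against 255, 619 and 299 on day 4 in W34/70 9.7, a change of 2.24 (SE 0.35, adjusted p = 5.28e-05) in log2.

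RPL15B was the gene that stood out in CBS1538 11.1. RPL15 is a protein of the large subunit, and RPL15B (S. cerevisiae chromosome XIII, bases 509734 to 510348) had fewer counts than its paralog RPL15A in every library. It had 288, 289.7 and 239 CPM in minimal medium, 51.3, 49.1 and 59.5 on day 4 and 56.5, 43.9 and 55.2 on day 2 in CBS1538 11.1. Among the W34/70 9.7 libraries it had 194, 198 and 226 CPM in minimal medium, 78.1, 108 and 88.5 on day 4 and 65.6, 60.6 and 68.6 on day 2. Minimal medium over day 4 gave a change of 2.35 (SE 0.17, adjusted p = 2.36e-08) in log2 in CBS1538 11.1 and 1.17 (SE 0.16, adjusted p = 1.5e-05) in W34/70 9.7. The test of the difference between strains gave -1.18 (SE 0.23, adjusted p = 0.00101). CBS1538 11.1 holds only the S. eubayanus copy of RPL15B, whereas W34/70 9.7 holds both, so unlike sets of copies are compared. Within W34/70 9.7 the S. cerevisiae copy took a smaller share in minimal medium than on day 4, as given below. The part of the copies in the strain difference was not tested. RPP1A, an acidic stalk protein, also rose in CBS1538 11.1, with 114, 305 and 152 CPM in minimal medium, against 52.7, 34.2 and 32 on day 4. Its log2 change was 2.26 (SE 0.37, adjusted p = 7.37e-05) in CBS1538 11.1 and 0.54 (SE 0.35, adjusted p = 0.197) in W34/70 9.7. Here too CBS1538 11.1 holds the S. eubayanus copy alone and W34/70 9.7 holds both.

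A small set of genes did not follow. In W34/70 9.7 the lower pair were RPS14B and RPS9A. RPS14 is a protein of the small subunit platform that in S. cerevisiae is known to hold back splicing of the RPS14B transcript, and RPS9 is a protein at the mRNA entry side. RPS14B (chromosome X, bases 73787 to 74611) had 174, 226 and 156 CPM in minimal medium, against 278, 366 and 389 on day 4, a change of -0.89 (SE 0.32, adjusted p = 0.0271) in log2. RPS9A (chromosome XVI, bases 404950 to 406044) had 313, 332 and 335 in minimal medium, against 397, 656 and 580.3 on day 4, a change of -0.74 (SE 0.28, adjusted p = 0.0343) in log2. Both groups were apart, but the calls rested on single libraries. The RPS14B call was lost without day 4 replicate 2 or 3 or minimal medium replicate 1 or 3, with log2 changes of -0.89 to -0.82. The RPS9A call was lost without day 4 replicate 2 or 3 or any of the minimal medium replicates, with log2 changes of -0.80 to -0.62. In CBS1538 11.1 RPS14B had 270.3, 341 and 272 in minimal medium, against 508, 345 and 427 on day 4, a change of -0.53 (SE 0.32, adjusted p = 0.19) in log2.

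In that strain the lower gene was RPL18B, with 11.7, 19.5 and 13.4 CPM in minimal medium, against 24.6, 22 and 27.1 on day 4. Its log2 change was -0.73 (SE 0.25, adjusted p = 0.0235), and the call was lost without day 4 replicate 3 or minimal medium replicate 1 or 3, with log2 changes of -0.73 to -0.65. For W34/70 9.7 RPL18B rose instead, with 191, 217 and 215 in minimal medium, against 120.0, 117 and 108 on day 4, a change of 0.85 (SE 0.24, adjusted p = 0.00721) in log2. The difference between the strains in this change was 1.59 (SE 0.35, adjusted p = 0.00313). RPL18B has an S. cerevisiae row only, so its values in both strains leave out any S. eubayanus copy. The low CBS1538 11.1 values may therefore cover only a part of the gene's RNA. RPL22B, another paralog that S. cerevisiae is known to hold back through splicing, had 89.7, 92.9 and 82.8 CPM in minimal medium, against 142, 145 and 97.5 on day 4 in W34/70 9.7, a change of -0.53 (SE 0.31, adjusted p = 0.165) in log2. Its partner RPL22A rose, with 1019, 1517 and 915 in minimal medium, against 377, 541 and 399 on day 4, a change of 1.39 (SE 0.26, adjusted p = 0.000309) in log2. In CBS1538 11.1 RPL22A had 562, 652 and 475 in minimal medium and 433, 222 and 246 on day 4, a change of 0.91 (SE 0.26, adjusted p = 0.00831) in log2, and the call was lost without day 4 replicate 2 or 3, at 0.66 and 0.71. RPL27A had a called rise in CBS1538 11.1 as well, but the strain does not hold it and it had at most 4.11 CPM there, so it is not read as a change.

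Against day 2, minimal medium gave the same direction with more exceptions. Among the W34/70 9.7 libraries, 90 of 137 genes were higher and 5 lower, where 32.8% and 32.1% of all names were. In CBS1538 11.1, 70 of 137 were higher and 7 lower, where 27.3% and 21.2% of all names were, and among the held genes the counts were 70 and 6, beside 32.5% and 24.8% of the names detected there. The medians over the held genes were 0.93 in W34/70 9.7 and 0.84 in CBS1538 11.1, against 0.02 and 0.12 over all names detected in each strain. The comparisons with day 4 and day 2 share the minimal medium libraries. Of the 117 genes held by both strains, 60 were higher in both and 2, RPL3 and RPL4B, were lower in both. The share of all names called in both strains was not computed here either. The count of lower genes moved with single libraries, being 8 instead of 5 in W34/70 9.7 without minimal medium replicate 2. In CBS1538 11.1 it was 4 instead of 7 without day 2 replicate 1, minimal medium replicate 1 or minimal medium replicate 2.

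The largest increases over day 2 were in RPL31A, RPL33B and RPL24B in W34/70 9.7 and in RPL15B, RPS26B and RPL29 in CBS1538 11.1. RPL31A, at the rim of the exit tunnel, had 1353, 2017 and 1262 CPM in minimal medium, against 268, 218 and 249.7 on day 2 in W34/70 9.7, a change of 2.66 (SE 0.30, adjusted p = 9.14e-07) in log2. RPL33B had 455, 654 and 439 in minimal medium, against 90.9, 88.3 and 116 on day 2 in W34/70 9.7, a change of 2.39 (SE 0.35, adjusted p = 1.49e-05) in log2. RPL24B, a protein of the bridge between subunits, had 1280.2, 1583 and 1235 in minimal medium, against 276, 189 and 375 on day 2 in W34/70 9.7, a change of 2.29 (SE 0.30, adjusted p = 5.67e-06) in log2. None of these groups overlapped. In CBS1538 11.1 RPS26B, a protein at the mRNA exit side, had 622, 699 and 518 in minimal medium, against 93.5, 83.6 and 196 on day 2, a change of 2.30 (SE 0.29, adjusted p = 7.79e-06) in log2. RPL29, a small and dispensable protein in S. cerevisiae, had 648, 1166 and 502 in minimal medium, against 176, 114 and 182 on day 2, a change of 2.29 (SE 0.30, adjusted p = 9.7e-06) in log2. In W34/70 9.7 RPL29 changed by 1.15 (SE 0.29, adjusted p = 0.00221), and the difference between the strains was -1.14 (SE 0.41, adjusted p = 0.0429). CBS1538 11.1 holds only the S. eubayanus copy of RPL29, and W34/70 9.7 holds both.

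Among the genes lower in minimal medium than on day 2 in W34/70 9.7 were RPL3, RPL8A, RPP0 and RPS14B. RPL3, which reaches into the peptidyl transferase centre, is encoded on S. cerevisiae chromosome XV, bases 444686 to 445849. It had 3873, 3925 and 4311 CPM in minimal medium, against 5959.7, 5328 and 6931 on day 2 in W34/70 9.7, a change of -0.59 (SE 0.22, adjusted p = 0.0241) in log2. With library totals in place of scaling factors the RPL3 change in W34/70 9.7 was -0.23 and no longer called. In CBS1538 11.1 RPL3 had 5638, 5522 and 7699 in minimal medium, against 14772, 9768 and 10372 on day 2, a change of -0.89 (SE 0.22, adjusted p = 0.00253) in log2. RPL8A, a large subunit protein, had 304, 297 and 249.6 CPM in minimal medium, against 670.5, 668 and 1121 on day 2 in W34/70 9.7, a change of -1.53 (SE 0.20, adjusted p = 4.16e-06) in log2. In CBS1538 11.1 RPL8A had 419, 382 and 440.5 in minimal medium, against 277, 278 and 345 on day 2, a change of 0.46 (SE 0.19, adjusted p = 0.0574) in log2, and the test of the difference gave -1.996 (SE 0.28, adjusted p = 4.02e-05). RPL8A is held as the S. eubayanus copy alone in CBS1538 11.1 and in both copies in W34/70 9.7. Its paralog RPL8B had log2 changes of 0.18 (SE 0.32, adjusted p = 0.64) in W34/70 9.7 and -0.98 (SE 0.32, adjusted p = 0.0165) in CBS1538 11.1, and the CBS1538 11.1 call was lost at -0.60 without day 2 replicate 1 and at -0.91 without minimal medium replicate 2. RPP0, the base of the stalk that recruits elongation factors, had 1823, 1659.7 and 2516 in minimal medium, against 4323, 3421 and 5226 on day 2 in W34/70 9.7, a change of -1.11 (SE 0.28, adjusted p = 0.00197) in log2. RPS14B had 174, 226 and 156 in minimal medium, against 393, 288 and 972 on day 2 in W34/70 9.7, a change of -1.57 (SE 0.33, adjusted p = 0.000495) in log2, and day 2 replicate 3 was far above the other day 2 libraries.

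Between day 4 and day 2 of wort fermentation the ribosomal protein genes did not move as one body. For W34/70 9.7, 14 of 137 genes were higher on day 4 and 36 were lower, where 20.7% and 17% of all names were. In CBS1538 11.1, 12 were higher and 35 lower, where 17.2% and 14.6% of all names were, and among the 117 held genes the counts were 12 and 32, beside 20.3% and 17.1% of the names detected there. The medians over the held genes were -0.12 in W34/70 9.7 and -0.14 in CBS1538 11.1, against 0.08 and 0.06 over all names detected in each strain. The split depended on the scaling in W34/70 9.7, where library totals gave 43 higher and 16 lower and moved the median of all names to 0.52 and of the ribosomal protein genes to 0.34. With scaling factors the median of all names tested was 0.07, so the ribosomal protein genes had the lower median in both scalings. Without the libraries with few S. eubayanus chromosome VII counts the counts in W34/70 9.7 were 11 and 31.

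These counts also moved with single libraries. Among the W34/70 9.7 libraries the genes higher on day 4 numbered 3 without day 2 replicate 1 or day 4 replicate 2, 8 or 7 when day 2 replicate 2 or 3 was left out, and 6 without day 4 replicate 3. In CBS1538 11.1 the higher genes numbered 4 without day 2 replicate 1 or day 4 replicate 1, 6 or 28 when day 2 replicate 2 or 3 was left out, and 7 without day 4 replicate 3. The lower genes in CBS1538 11.1 numbered 21 without day 2 replicate 1 or day 4 replicate 2 and 22 without day 4 replicate 3.

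The strains share no library in this comparison, and their changes can be set side by side. Of the 117 genes held by both strains, 93 had the same sign in each, and the log2 changes had a Pearson r of 0.77 and a Spearman rho of 0.77 across genes, which are not independent replicates. Over 5288 other names detected in both strains, 3691 had the same sign and r was 0.52. For minimal medium minus day 2, r was 0.72 over the 117 genes and 0.59 over the other names. For minimal medium minus day 4 the order was reversed, with 0.44 and 0.585. Between day 4 and day 2, 23 of the 117 genes were called lower in both strains. Called higher in both were 5 genes (RPL20B, RPL33B, RPS17B, RPS27A and RPS9A), and 2 had opposite signs (RPL36B and RPL9A). For RPL36B the strains hold different copies. The share of all names called in both strains was not computed.

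**Figure D3:**
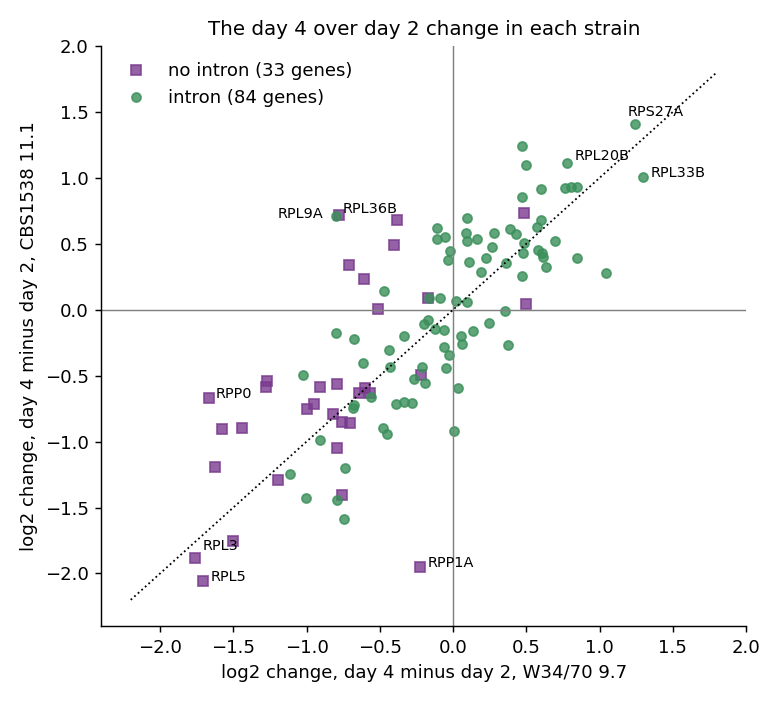
log2 change, day 4 minus day 2, of the 117 ribosomal protein genes held by both strains, in W34/70 9.7 (horizontal) and CBS1538 11.1 (vertical), by whether the S. cerevisiae gene has an intron; the dotted line marks equal change. RPL3 and RPL5 lie among the 3 lowest in both strains, RPS27A among the 2 highest, and RPL9A, RPL36B and RPP1A off the line.

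RPL3 and RPL5 were among the largest decreases in both strains. RPL3 had 1801, 1932 and 1652 CPM on day 4, against 5959.7, 5328 and 6931 on day 2 in W34/70 9.7, a change of -1.76 (SE 0.22, adjusted p = 6.71e-05) in log2. In CBS1538 11.1 it had 3634, 2864 and 2978 on day 4, against 14772, 9768 and 10372 on day 2, a change of -1.88 (SE 0.22, adjusted p = 3.46e-05) in log2. RPL5, which binds the 5S ribosomal RNA (S. cerevisiae chromosome XVI, bases 303121 to 304014), had 1039, 1395 and 1176 on day 4, against 4416, 2684 and 4669 on day 2 in W34/70 9.7, a change of -1.70 (SE 0.26, adjusted p = 0.000183) in log2. In CBS1538 11.1 RPL5 had 2412, 1586 and 1739 on day 4, against 10091, 6247 and 7499 on day 2, a change of -2.05 (SE 0.27, adjusted p = 5.73e-05) in log2. In each case all 3 day 4 libraries were below all 3 day 2 libraries. RPL4A, whose product lines the exit tunnel, had 357, 403 and 366 on day 4, against 1488, 1033 and 1298 on day 2 in W34/70 9.7, a change of -1.76 (SE 0.23, adjusted p = 6.92e-05) in log2. RPP0 had 1438, 1495 and 1149.5 on day 4, against 4323, 3421 and 5226 on day 2 in W34/70 9.7, a change of -1.67 (SE 0.28, adjusted p = 0.000349) in log2. In CBS1538 11.1 RPP0 had 3102, 2156 and 1976 on day 4 and 5154, 2803 and 3549 on day 2, and its change of -0.67 (SE 0.27, adjusted p = 0.0717) was not called. It was called at -0.85 without day 2 replicate 2, at -0.94 without day 4 replicate 1 and at -0.75 with DESeq2. Stalk genes together took 3.72, 3.37 and 3.1% of the ribosomal protein counts on day 4, against 6.24, 5.75 and 6.83% on day 2 in W34/70 9.7, and 6.39, 6.67 and 5.8% on day 4, against 6.54, 6.23 and 6% on day 2 in CBS1538 11.1. The groups were apart in W34/70 9.7 and overlapped in CBS1538 11.1.

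Among the higher genes, RPS27A (S. cerevisiae chromosome XI, bases 158613 to 159212), which encodes a small subunit protein with a zinc finger, led in CBS1538 11.1. It had 275, 232 and 282 CPM on day 4, against 65.3, 84.1 and 148 on day 2 there, a change of 1.41 (SE 0.29, adjusted p = 0.00146) in log2. In W34/70 9.7 it had 620.3, 753 and 602 on day 4, against 274, 249 and 313 on day 2, a change of 1.24 (SE 0.28, adjusted p = 0.00296) in log2, and its paralog RPS27B changed by 0.38 (SE 0.35, adjusted p = 0.412). RPL33B had 238, 285 and 203 on day 4, against 90.9, 88.3 and 116 on day 2 in W34/70 9.7, a change of 1.30 (SE 0.34, adjusted p = 0.00658) in log2. RPL23B and RPL20B had log2 changes of 1.24 (SE 0.24, adjusted p = 0.00107) and 1.11 (SE 0.24, adjusted p = 0.00227) in CBS1538 11.1, and of 0.47 (SE 0.24, adjusted p = 0.129) and 0.78 (SE 0.24, adjusted p = 0.0169) in W34/70 9.7. RPL27A had 342, 413 and 448 on day 4, against 135, 133 and 211 on day 2 in W34/70 9.7, a change of 1.33 (SE 0.51, adjusted p = 0.0499) in log2. That call was lost when any of the 6 libraries was left out, with log2 changes of 1.16 to 1.51, and with DESeq2, where the adjusted p was 0.325. It was lost as well with size factors, with scaling without ribosomal protein genes, with no filter and with the replicate block, at 1.25 to 1.30. RPL22B had 142, 145 and 97.5 on day 4, against 70.8, 59.5 and 60.0 on day 2 in W34/70 9.7, a change of 1.01 (SE 0.32, adjusted p = 0.0226) in log2, and this call was lost without day 2 replicate 1 or 3 or day 4 replicate 1 or 2, with log2 changes of 0.83 to 1.05. In CBS1538 11.1 the called fall of RPL22B rests on 7 counts in day 2 replicate 2, in a gene the strain does not hold.

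Genes with and without an intron differed in level between the wort days. From general knowledge of S. cerevisiae, 36 of the 137 genes have none, and this list was drawn up after the values had been seen, so it is described and not tested. The table shows no introns. Genes without an intron took 32.3, 32.9 and 30.6% of the ribosomal protein counts on day 4, against 46.5, 43.3 and 49.6% on day 2 in W34/70 9.7. In CBS1538 11.1 they took 49.1, 48.7 and 47.1% on day 4, against 62.2, 60.8 and 57.4% on day 2. In both strains the day 4 libraries were all below the day 2 libraries, and these shares within a library do not depend on scaling between libraries. In minimal medium the share was 37.2, 36.4 and 37.7% in W34/70 9.7 and 46.2, 47.3 and 52.1% in CBS1538 11.1, also below all day 2 libraries of the same strain. These shares pool both subunits.

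**Figure D4:**
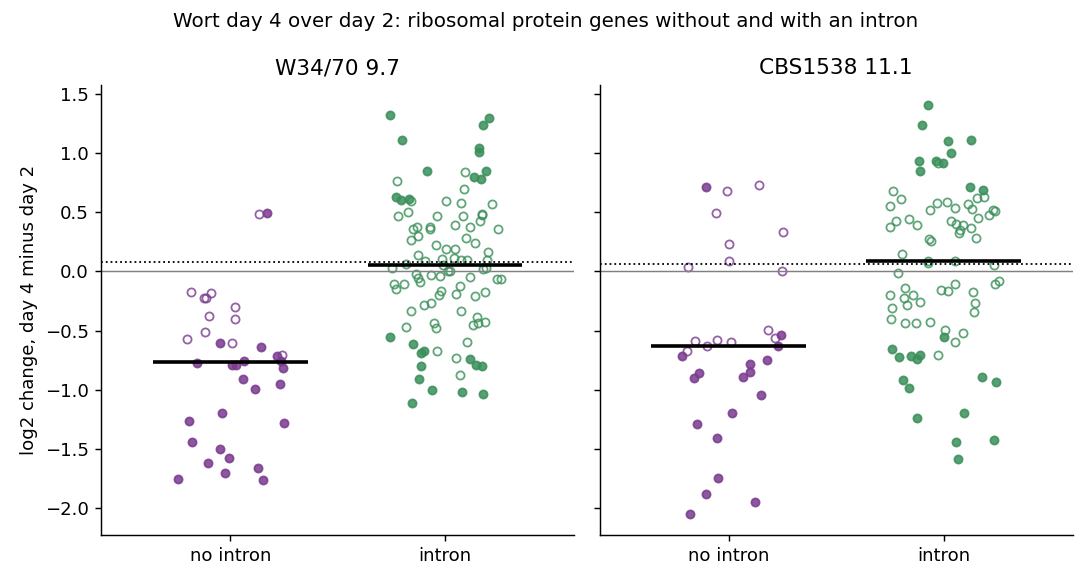
log2 change of each ribosomal protein gene, day 4 minus day 2, in W34/70 9.7 (left, 137 genes) and CBS1538 11.1 (right, 117 held genes), for genes without and with an intron in S. cerevisiae; filled points have an adjusted p under 0.05, bars are medians, and the dotted line is the median over all names detected in the strain. The median of the genes without an intron lies at -0.77 in W34/70 9.7 and -0.63 in CBS1538 11.1, and that of the genes with an intron at 0.05 and 0.09.

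Counted by gene, 23 of the 36 genes without an intron were lower on day 4 and 1 was higher in W34/70 9.7, with a median log2 change of -0.77. Of the 101 genes with an intron, 13 were lower and 13 higher, with a median of 0.05. In CBS1538 11.1, 17 of the 33 held genes without an intron were lower and 1 higher, with a median of -0.63, whereas of the 84 with an intron 15 were lower and 11 higher, with a median of 0.09. By gene median this held in both subunits: in W34/70 9.7 the medians without an intron were -0.79 for the large and -0.71 for the small subunit, against 0.09 and -0.01 with one. In CBS1538 11.1 they were -0.67 and -0.63 without, against 0.28 and -0.13 with an intron. By share of counts the small subunit of CBS1538 11.1 was an exception. Its genes without an intron took 40.7, 39.4 and 38.2% of the small subunit counts on day 4, against 39.7, 37.5 and 39.5% on day 2, so the groups overlapped, and 40.4, 41.8 and 43.6% in minimal medium, above all 3 day 2 libraries. For the large subunit of that strain the share was 55.2, 55.2 and 53.5% on day 4, against 74.6, 72.7 and 68.1% on day 2. In W34/70 9.7 both subunits had lower shares on day 4 in all libraries, with 30.8, 31.9 and 29.1% on day 4, against 40.4, 37.3 and 43% on day 2 in the small subunit. In minimal medium the small subunit share of W34/70 9.7 was 37.7, 38.3 and 37.6%, within the range of day 2. The genes without an intron include RPL3, RPL5, RPL4A, RPL4B and RPP0, as well as RPS2, RPS3 and RPS20. They also include genes that went the other way, such as RPL15B, at 0.50 in W34/70 9.7, and RPL9A, at 0.72 in CBS1538 11.1.

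Gene length moved with the change over other genes too, and its part in the difference was not tested. Over names that are no ribosomal protein gene, those with spans up to 500 bases had a median log2 change, day 4 minus day 2, of 0.54 in W34/70 9.7 and 0.51 in CBS1538 11.1, and those over 2000 bases had -0.06 and -0.16. The 15 ribosomal protein genes without an intron and with spans up to 500 bases had a median of -0.71 in W34/70 9.7, and the 13 held by CBS1538 11.1 had -0.71. With spans over 500 and up to 800 bases, 16 genes without an intron had a median of -0.73 in W34/70 9.7, against 0.37 over 37 genes with an intron. In CBS1538 11.1, 16 such genes had a median of -0.52, against 0.39 over 29 genes with an intron. Most genes with an intron had spans over 800 bases. There 64 had a median of -0.05 in W34/70 9.7, with 7 higher and 11 lower. In CBS1538 11.1, 55 had a median of -0.18, with 6 higher and 14 lower. Genes without an intron over 800 bases were only 5 in W34/70 9.7 and 4 in CBS1538 11.1, with medians of -1.70 and -1.54. The spans with introns are longer than the transcripts, so equal spans are not equal lengths. The table counts reads per gene and does not separate spliced from unspliced RNA.

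The A and B paralogs of a pair often moved apart. The table holds 61 pairs with enough counts in W34/70 9.7, of which 59 are ribosomal, so that the other pairs give no background and the shares below are nearly those of the ribosomal pairs themselves. The balance of A and B changed between day 4 and day 2 in 28 of 59 pairs in W34/70 9.7 and in 25 of 44 in CBS1538 11.1 by limma, where 47.5% and 58.7% of all pairs tested did. Between minimal medium and day 2 it changed in 35 of 59 and 27 of 44 pairs, where 60.7% and 63% of all pairs did. Between minimal medium and day 4 it changed in 15 of 59 and 18 of 44, where 27.9% and 41.3% of all pairs did. Paralogs and sub-genome copies share long stretches of sequence, and how reads with several matches were counted is not given in the sources used here, so the level of a single paralog is less certain than that of a pair.

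**Figure D5:**
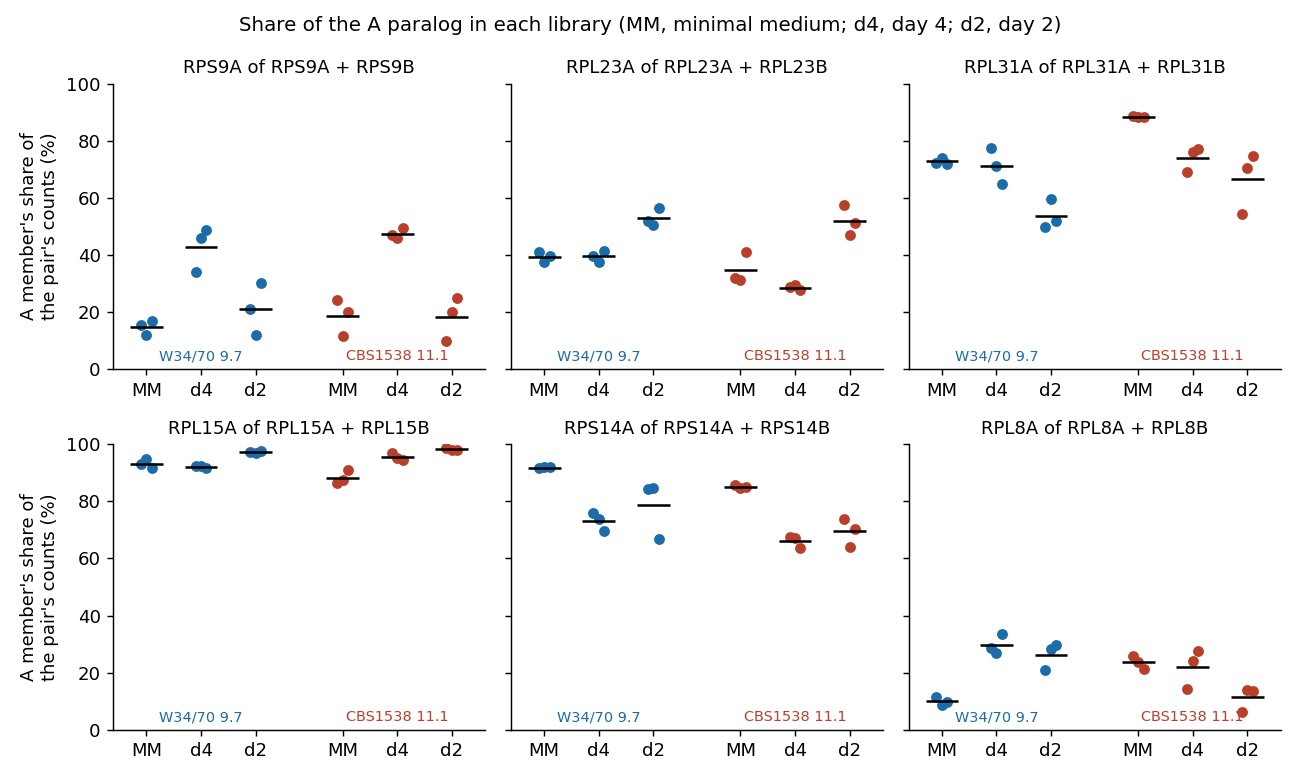
Share of the A member in the counts of 6 paralog pairs, in percent, with both sub-genome copies summed; points are libraries and bars are means of 3. RPS9A stands highest on day 4 in both strains, RPL15A lowest in minimal medium in CBS1538 11.1, RPS14A highest in minimal medium in both strains, and RPL8A lowest in minimal medium in W34/70 9.7.

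RPS9A took 33.9, 45.9 and 48.8% of the RPS9 counts on day 4, against 20.9, 11.9 and 29.997% on day 2 in W34/70 9.7, and 15.3, 12 and 17% in minimal medium. In CBS1538 11.1 RPS9A took 24, 11.4 and 20.1% in minimal medium, 46.8, 45.9 and 49.4% on day 4 and 9.73, 20.1 and 25% on day 2. Day 4 stood above both other conditions in both strains. RPS9B moved the other way in CBS1538 11.1, with 221, 149.8 and 152 CPM on day 4, against 589.7, 269 and 344 on day 2, a change of -1.20 (SE 0.35, adjusted p = 0.015) in log2. RPL15A took 93.1, 94.9 and 91.7% in minimal medium, 92.3, 92.5 and 91.8% on day 4 and 97.5, 96.9 and 97.8% on day 2 in W34/70 9.7. In CBS1538 11.1 RPL15A took 86.5, 87.5 and 91.1% in minimal medium, 96.9, 95.3 and 94.7% on day 4 and 98.6, 97.9 and 98.2% on day 2, with minimal medium below both wort days.

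RPS14A took 91.6, 92 and 92% of the RPS14 counts in minimal medium, 75.8, 73.9 and 69.6% on day 4 and 84.5, 84.7 and 66.7% on day 2 in W34/70 9.7. In CBS1538 11.1 it took 85.8, 84.7 and 85.2% in minimal medium, 67.4, 67 and 63.6% on day 4 and 73.9, 64.2 and 70.4% on day 2. Minimal medium was above both wort days in both strains. RPS22A took 95, 95.7 and 95.3% in minimal medium, 83, 78.3 and 74.9% on day 4 and 90.8, 91 and 79.6% on day 2 in W34/70 9.7, again highest in minimal medium. RPL22A took 91.9, 94.2 and 91.7% in minimal medium, 72.7, 78.8 and 80.4% on day 4 and 85.5, 83.8 and 86.1% on day 2 in W34/70 9.7. RPL8A took 11.3, 8.81 and 9.66% in minimal medium, 28.7, 26.9 and 33.6% on day 4 and 20.8, 28.2 and 29.8% on day 2 in W34/70 9.7. In CBS1538 11.1 RPL8A took 25.8, 23.7 and 21.3% in minimal medium, 14.2, 24 and 27.7% on day 4 and 6.29, 14.1 and 13.5% on day 2. Minimal medium was below day 2 in W34/70 9.7 and above it in CBS1538 11.1. RPL31A took 72.3, 73.9 and 72% in minimal medium, against 49.6, 59.5 and 51.8% on day 2 in W34/70 9.7. In CBS1538 11.1 RPL31A took 88.7, 88.2 and 88.3% in minimal medium, against 54.3, 70.6 and 74.8% on day 2.

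RPL17A, RPS18A and RPL23A shifted in CBS1538 11.1. RPL17A took 69.3, 70.3 and 69.8% of its pair in minimal medium, against 90.0, 88.9 and 88.1% on day 2. RPS18A took 42.2, 39.8 and 37.1% on day 4, against 75.7, 68.1 and 56.8% on day 2, and RPL23A took 28.7, 29.2 and 27.7% on day 4, against 57.4, 46.9 and 51.2% on day 2. None of these groups overlapped. RPS27A took 54.8, 53.6 and 51% of its pair on day 4, against 37.4, 43.4 and 36% on day 2 in W34/70 9.7. RPL40A, one of the genes that encode a ubiquitin fusion with a large subunit protein, took 54.6, 64.4 and 68.7% on day 4, against 71.3, 66 and 76.6% on day 2 in that strain, and 58.7, 63.4 and 57.4% in minimal medium.

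The ubiquitin fusion genes rose in minimal medium over day 4 in W34/70 9.7. RPS31 had 4170.4, 6479 and 4438 CPM in minimal medium, 1703, 2774 and 1870.1 on day 4 and 4084, 2804 and 5022 on day 2 in W34/70 9.7. Its log2 change of minimal medium over day 4 was 1.25 (SE 0.35, adjusted p = 0.00653). Day 4 over day 2 gave -0.91 (SE 0.35, adjusted p = 0.0499), a call lost without day 2 replicate 1 or 3 or day 4 replicate 1 or 3, with log2 changes of -0.94 to -0.77. It was also lost with library totals, at -0.43 (adjusted p = 0.303), with the replicate block, at -0.92, and without both libraries with few S. eubayanus chromosome VII counts, at -0.97. In CBS1538 11.1 RPS31 had 1984, 4241 and 2564 in minimal medium, against 1667, 929 and 1036 on day 4, a change of 1.27 (SE 0.35, adjusted p = 0.00618) in log2, lost at 1.05 without day 4 replicate 2 and at 0.91 without minimal medium replicate 2. RPL40B had 875, 1159 and 856 in minimal medium, against 498, 489 and 334 on day 4 in W34/70 9.7, a change of 1.13 (SE 0.23, adjusted p = 0.00149) in log2, and RPL40A had 0.99 (SE 0.25, adjusted p = 0.00324). RPL41B had 1017, 1849 and 911 in minimal medium, against 352, 689 and 426 on day 4 in W34/70 9.7, a change of 1.36 (SE 0.38, adjusted p = 0.00557) in log2, lost at 0.93 without minimal medium replicate 2.

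With the sub-genome copies apart, both sub-genomes took part in the minimal medium increase. For W34/70 9.7, 56 of 137 held S. cerevisiae copies and 82 of 109 held S. eubayanus copies rose in minimal medium over day 4, where 20.2% of all 10894 genes tested did, and 0 and 4 were lower, where 23% were. Their medians were 1.04 and 1.14. In CBS1538 11.1, 13 of 27 S. cerevisiae and 49 of 112 S. eubayanus copies were higher, where 13.4% were, and 1 and 0 were lower, where 14.8% were. Between day 4 and day 2 in W34/70 9.7, 3 S. cerevisiae and 2 S. eubayanus copies were higher, where 16.1% were, and 11 and 24 were lower, where 12.5% were. In CBS1538 11.1, 4 copies of each sub-genome were higher, where 7.85% were, and 2 and 17 were lower, where 8.21% were. S. eubayanus copies took 29.8, 29.4 and 30.2% of the ribosomal protein counts in minimal medium, 28.9, 27.4 and 29% on day 4 and 30.4, 31.5 and 34% on day 2 in W34/70 9.7. All day 4 libraries were below those of both other groups.

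The balance of the S. cerevisiae and S. eubayanus copies of one gene was compared within each strain. Among the W34/70 9.7 libraries limma called 1 of 110 between day 4 and day 2, 11 between minimal medium and day 2 and 7 between minimal medium and day 4, where 10.1%, 27.4% and 12.7% of the 4015 names tested were called. In CBS1538 11.1 it called 4, 10 and 1 of 24, where 15.2%, 29.4% and 25.8% of 1028 names were called. These counts moved with single libraries. In W34/70 9.7 the first was 0 without day 2 replicate 1 or 3 or day 4 replicate 2 or 3, and 2 without day 4 replicate 1. The next was 7 without day 2 replicate 1, 5 without minimal medium replicate 1 or 2 and 6 without minimal medium replicate 3. The last was 3 without day 4 replicate 1 or 3 or minimal medium replicate 3, 2 without day 4 replicate 2 and 1 without minimal medium replicate 1 or 2. Without both libraries with few S. eubayanus chromosome VII counts they were 8, 25 and 11. In CBS1538 11.1 the first was 0 without any one of the day 4 replicates, and the next was 6 without day 2 replicate 2 and 5 without minimal medium replicate 1 or 2. The S. cerevisiae copy of RPL29 took 64, 63.2 and 46.1% of its counts in minimal medium, against 37.5, 39.3 and 39.5% on day 4 and 31.6, 32.7 and 29.5% on day 2 in W34/70 9.7. The log2 ratio changed by 1.598 (adjusted p = 0.00627) over day 2. The S. cerevisiae copy of RPL15B took 17.1, 18.4 and 20.4% in minimal medium, against 41.3, 35.4 and 42.2% on day 4 and 33, 37.1 and 39.1% on day 2, a change of -1.32 (adjusted p = 0.00272) over day 2. RPS28A was the gene called between day 4 and day 2, with 50.6, 52.4 and 48.9% on day 4, against 40.4, 42.1 and 40.7% on day 2, a change of 0.56 (adjusted p = 0.0288). The S. cerevisiae copies of RPS14A and RPS23B took 44, 43.6 and 44.5% and 77.6, 78 and 77.3% in minimal medium, against 64.3, 55.3 and 70.3% and 74.6, 67.9 and 67.7% on day 2.

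In CBS1538 11.1 the largest changes were in RPL39, a small protein of the exit tunnel, and in RPL17A, RPS22A, RPS24B and RPS7B. The S. cerevisiae copy of RPL39 took 33.2, 33.8 and 33.8% on day 4, against 58.6, 54.9 and 44.4% on day 2, a change of -1.14 (adjusted p = 0.0216). That of RPS22A took 41.9, 43.2 and 39.9% on day 4, against 54.4, 53.6 and 49.3% on day 2, a change of -0.62 (adjusted p = 0.0316). That of RPL17A took 23.5, 22.3 and 22% on day 4, against 15.5, 15.6 and 16.7% on day 2, the opposite direction, a change of 0.62 (adjusted p = 0.0307). RPS24B had 29, 25.1 and 29.4% in minimal medium, against 47.8, 38.3 and 37.3% on day 2, and RPS7B had 20.8, 22 and 22.1% in minimal medium, against 35.1, 37.9 and 37.9% on day 4. For W34/70 9.7 the libraries with few S. eubayanus chromosome VII counts are also those in which the S. cerevisiae copy of RPP0, on chromosome XII, took its lowest shares, with 26.2, 40.4 and 42.7% on day 4 and 42.2, 23.4 and 44% on day 2.

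Between the strains, ribosomal protein genes were mostly higher in W34/70 9.7 in each condition. Over the 113 genes with a row in each sub-genome, 79 were higher and 7 lower in minimal medium, 71 and 7 on day 4, and 72 and 6 on day 2. Of the 4328 names with a row in each sub-genome and detected in both strains, 36.7% and 27.4% were higher and lower in minimal medium, 35.2% and 26% on day 4, and 30.6% and 22% on day 2. The medians over the 113 genes were 0.98, 0.84 and 0.95, against 0.16, 0.15 and 0.13 over those names. Over all 137 genes 103, 95 and 96 were higher, where 41%, 41.7% and 38.5% of all names were, but this includes the 20 genes CBS1538 11.1 does not hold. Among those, RPL13B, RPL40B and RPS16A had no count in any of the 9 CBS1538 11.1 libraries, and RPL35B at most 0.795 CPM, so no fold is given. The strains also differ in the copies they hold, and the part of this in the difference was not tested. CBS1538 11.1 is counted mostly on S. eubayanus rows. For 36 of the 113 genes these span far fewer bases than the S. cerevisiae row, as in RPL2A with 156 against 912. Over the 84 held genes with an intron the medians were 1.16, 1.01 and 1.07 in minimal medium, day 4 and day 2. Over the 33 without one they were, in the same order, 0.48, 0.27 and 0.38. The part of row spans and introns in the strain difference was not tested.

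RPL4B, RPL1B and RPL3 were lower in W34/70 9.7 in all 3 conditions. RPL4B had 681, 562 and 734 CPM in W34/70 9.7 on day 2, against 1554, 1436 and 1509 in CBS1538 11.1, a change of -1.19 (SE 0.17, adjusted p = 1.41e-05) in log2. On day 4 and in minimal medium it changed by -1.61 (SE 0.18, adjusted p = 3.51e-07) and -1.43 (SE 0.17, adjusted p = 1.38e-06). Its paralog RPL4A has no usable row in CBS1538 11.1, with at most 14.9 CPM there, against 357 to 1488 in W34/70 9.7. The RPL4 pair as a whole is therefore not compared between strains. RPL1B, a protein of the stalk at which spent transfer RNA leaves, had 633, 453 and 654 on day 2 in W34/70 9.7, against 2618, 1402 and 1861 in CBS1538 11.1, a change of -1.76 (SE 0.24, adjusted p = 6.36e-06) in log2. RPL5 had -1.02 (SE 0.26, adjusted p = 0.00246) on day 2 and -0.17 (SE 0.26, adjusted p = 0.562) in minimal medium, and RPL3 had -0.94 (SE 0.22, adjusted p = 0.00122) and -0.64 (SE 0.22, adjusted p = 0.0144). RPL13A had 64.1, 73.1 and 61.8 in W34/70 9.7 in minimal medium, against 179, 174 and 137 in CBS1538 11.1, a change of -1.30 (SE 0.24, adjusted p = 0.000155) in log2, while its paralog RPL13B has no usable row in CBS1538 11.1. On plain library totals, the S. eubayanus copy of RPL13A averaged 1.35 CPM in W34/70 9.7 and 94.4 in CBS1538 11.1. That of RPL1B averaged 18.7 and 1349 in the same order. Why these copies had so few counts in W34/70 9.7 was not tested. RPP0 had a change of -0.83 (SE 0.27, adjusted p = 0.0132) in log2 on day 4, lost at -0.64 without CBS1538 11.1 day 4 replicate 1. Without that library 4 instead of 7 of the 137 genes were lower on day 4.

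Tests of whether the strains differed in a change called few genes. For day 4 over day 2 they called 4 of 137, where 10.7% of all names were called, for minimal medium over day 2 they called 10, where 28.9% were, and for minimal medium over day 4 they called 9, where 24.2% were. The first count was 7 without CBS1538 11.1 day 2 replicate 3 or W34/70 9.7 day 2 replicate 2 and 2 without CBS1538 11.1 day 4 replicate 2. The second was 6 without W34/70 9.7 minimal medium replicate 1 and 27 with library totals. The third was 5 without any one of CBS1538 11.1 day 4 replicate 3, CBS1538 11.1 minimal medium replicate 2, W34/70 9.7 day 4 replicates 1 and 3, and W34/70 9.7 minimal medium replicate 1. RPL9A and RPL36B went opposite ways between day 4 and day 2. RPL9A had 362, 412 and 254 CPM on day 4, against 626, 594 and 541 on day 2 in W34/70 9.7, and 190.2, 127 and 112 on day 4, against 97.5, 66 and 97.7 on day 2 in CBS1538 11.1. The test of the difference gave -1.49 (SE 0.34, adjusted p = 0.0109). RPL36B had 522, 889 and 678 on day 4, against 1355, 917 and 1368 on day 2 in W34/70 9.7, and 586, 455 and 511 on day 4, against 255, 247 and 445 on day 2 in CBS1538 11.1, a difference of -1.51 (SE 0.36, adjusted p = 0.0147). W34/70 9.7 holds only the S. cerevisiae copy of RPL36B and CBS1538 11.1 only the S. eubayanus copy. That difference therefore sets different copies against each other. RPP1A had 52.7, 34.2 and 32 on day 4, against 193, 139 and 129 on day 2 in CBS1538 11.1, and 103, 223 and 127 on day 4, against 245, 139 and 145 on day 2 in W34/70 9.7, a difference of 1.73 (SE 0.50, adjusted p = 0.0348). Of RPL9A and RPP1A CBS1538 11.1 holds the S. eubayanus copy alone. In the W34/70 9.7 wort libraries the S. cerevisiae copy took 76.3 to 100% of the RPL9A counts and 81.7 to 96.5% of the RPP1A counts. These differences too are therefore largely between unlike copies.

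Genes that act on ribosomal proteins or their genes were read from lists of known members. Of 14 chaperones of ribosomal proteins, 11 of the 13 detected in W34/70 9.7 and 11 of the 12 detected in CBS1538 11.1 rose in minimal medium over day 4, where 27.2% and 29.9% of all names detected in these strains did, and the others were not called. Their median log2 changes were 1.64 and 1.09. BCP1, the chaperone of RPL23, and TSR2, that of RPS26, had the smallest p-values in W34/70 9.7, with log2 changes of 2.11 (SE 0.21, adjusted p = 5.24e-07) and 1.94 (SE 0.22, adjusted p = 2.31e-06). ZUO1, of the ribosome-associated complex, and YAR1, the chaperone of RPS3, had the smallest in CBS1538 11.1, with 2.29 (SE 0.24, adjusted p = 9.39e-07) and 2.42 (SE 0.28, adjusted p = 3.05e-06). Between day 4 and day 2 the list was split, with 5 higher and 3 lower of 13 in W34/70 9.7 and 3 higher and 3 lower of 12 in CBS1538 11.1, where 21.6% and 17.7% of the detected names were higher and lower in W34/70 9.7 and 20.3% and 17.1% in CBS1538 11.1. SSB1 and SSB2, which fold nascent chains at the ribosome, fell in both strains, by 1.19 (SE 0.21, adjusted p = 0.000465) and 1.20 (SE 0.20, adjusted p = 0.000389) on the log2 scale in W34/70 9.7.

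Of 15 known regulators of ribosomal protein genes, 2 were higher and 3 lower in minimal medium than on day 4 in W34/70 9.7, with a median log2 change of -0.03, and 3 were higher and 6 lower in CBS1538 11.1, with a median of -0.29. Of the names detected, 27.2% and 28.6% were higher and lower in W34/70 9.7 and 29.9% and 27.3% in CBS1538 11.1. ABF1, a promoter-binding factor, rose by 1.43 (SE 0.18, adjusted p = 4.91e-06) and DOT6, a repressor of ribosome biogenesis genes, fell by 1.74 (SE 0.22, adjusted p = 5.38e-06) on the log2 scale in W34/70 9.7. In CBS1538 11.1 FHL1, an activator bound to ribosomal protein promoters, changed by 1.09 (SE 0.24, adjusted p = 0.00102) and SFP1, an activator that answers to nutrients, by -1.604 (SE 0.20, adjusted p = 5.93e-06). Between day 4 and day 2 the list had 1 higher and 5 lower in W34/70 9.7 and 3 higher and 2 lower in CBS1538 11.1, beside 21.6% and 17.7%, and 20.3% and 17.1%, of the detected names. Of 8 factors bound to ribosomes or to resting ribosomes, 7 of 8 rose in minimal medium over day 4 in W34/70 9.7 and 5 of the 6 detected in CBS1538 11.1, where 1 was lower, beside 27.2% and 29.9% of the detected names higher. On day 4 over day 2, 1 of the 8 was higher and 3 were lower in W34/70 9.7, with a median log2 change of -0.21, and 5 of the 6 were lower in CBS1538 11.1, with a median of -1.11, while the sixth was not called. Of the detected names 21.6% were higher and 17.7% lower in W34/70 9.7, and 17.1% were lower in CBS1538 11.1. Among the lower ones, STM1, a clamp of resting ribosomes, fell by 1.62 (SE 0.33, adjusted p = 0.00129) on the log2 scale in W34/70 9.7, and ASC1, a small subunit scaffold protein, by 1.14 (SE 0.27, adjusted p = 0.00375). RPP1, the ribonuclease P subunit with a ribosomal name, had 55, 57.1 and 55.9 CPM in minimal medium, against 35.9, 26.5 and 24.5 on day 4 in W34/70 9.7, a change of 0.95 (SE 0.18, adjusted p = 0.000352) in log2, and its change between day 4 and day 2 was -0.01 (SE 0.18, adjusted p = 0.988).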

How the data were processed

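Total RNA of 18 cultures was sequenced in paired ends. Raw read counts per gene, on a reference that joins both parental species, were deposited by the authors in 1 table. The submitters' processing notes name STAR, SAMtools, featureCounts and DESeq2, without roles, and the build R64. The S. eubayanus assembly, the use of strand and the treatment of reads with several matches are not stated in any source used here. Every count column matched 1 library, so 0 were left unused.

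Copies of a name were summed, and 6633 names passed edgeR's filterByExpr. The quasi-likelihood test of edgeR 4.0.16 (R 4.3.3) used TMM scaling factors and 1 fit over all 18 libraries, with Benjamini-Hochberg adjustment over all names and a threshold of 0.05. CPM values use the TMM-scaled library size, apart from the rule for held copies and the S. eubayanus copy averages of RPL13A and RPL1B, which use plain library totals. A second fit kept the copies apart over 10894 genes. Balances of paralogs and copies were tested with limma 3.58.1 on log2 ratios of counts plus 0.5, for members averaging at least 20 counts. Names averaging 20 counts in a strain are called detected. The scripts were tested on simulated data.

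Genes named are the 3 largest called rises and falls per comparison, the 3 largest called balance changes, RPL3, RPP0, the RPL22, RPS27 and RPL40 pairs, RPS31, RPP1, the 3 highest per kilobase, and the 2 listed regulators or chaperones with the smallest p. RPL36B, RPS9B, STM1 and ASC1, which this rule does not cover, were chosen after their values were seen. RPS2, RPS3 and RPS20, also outside the rule, are given as examples of genes without an intron. A gene that the rule names is not reported here. The members and lists were chosen with earlier results of these data known. Nothing says whether the cultures were independent beyond triplicate, so p-values measure the spread between these cultures. Alternatives were other scalings, no filter, DESeq2 1.42.0, the compared groups alone, a replicate block and leaving out libraries. Deviations from the group means were compared between same-numbered libraries, and 8 of 45 correlations were over 0.1, within a range of -0.64 to 0.52. Between day 2 and day 4 of W34/70 9.7 they were -0.64, -0.53 and 0.52 for replicates 1, 2 and 3. Whether the same fermentations were sampled on both days under other numbers was not tested.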

Additional observations from a re-analysis of the deposited data

Results flagged for a closer look

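The change between conditions differed between the strains, by a test of the difference itself, in the genes given here as the W34/70 9.7 change minus the CBS1538 11.1 change on the log2 scale. The test was edgeR's quasi-likelihood test with Benjamini-Hochberg adjustment over all names. For day 4 minus day 2 the differences were -1.51 for RPL36B, -1.49 for RPL9A and 1.73 for RPP1A. That of RPL36B sets the S. cerevisiae copy in W34/70 9.7 against the S. eubayanus copy in CBS1538 11.1. RPL18B, given below, is counted on an S. cerevisiae row alone in both strains. For all others in this section but RPL22B, CBS1538 11.1 holds the S. eubayanus copy alone and W34/70 9.7 holds both. The part of the copies held in these differences was not tested. RPL22B had 6.22, but CBS1538 11.1 does not hold that gene and its counts there were 7 in 1 library, so the value is not a difference in regulation that these data can show.

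For minimal medium minus day 2 the differences were -1.26 for RPL13A, -0.73 for RPL15B, 1.27 for RPL18B, -1.14 for RPL29, 1.35 for RPL31B, -2.0 for RPL8A, 1.07 for RPS10B, 1.27 for RPS28B and 0.96 for RPS8A. RPL22B had 5.69, with the same limit as above. Every one of these uses the CBS1538 11.1 day 2 libraries, whose strain label is in doubt.

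For minimal medium minus day 4, which does not use those libraries, the differences were -1.18 for RPL15B, 1.59 for RPL18B, 0.91 for RPL1A, 0.96 for RPL25, -1.27 for RPL8A, 1.37 for RPL9A, -1.72 for RPP1A, 0.90 for RPS10B and -0.82 for RPS11B. RPL15B, RPL18B, RPL8A and RPS10B were called in both comparisons of minimal medium, which share the minimal medium libraries.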

How the results depend on the processing

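Of 479 alternative counts for 45 results, 397 stayed within 1.5 times the reported count. With library totals, genes higher on day 4 than day 2 numbered 19 in CBS1538 11.1 and 43 in W34/70 9.7, where 16 were lower; minimal medium under day 2 gave 3 lower in W34/70 9.7, and the strain difference in minimal medium over day 2 gave 27. With copies apart they gave 48 higher and 17 lower on day 4 in W34/70 9.7, 5 lower in minimal medium than on day 2 in W34/70 9.7, and 1 lower than on day 4 in CBS1538 11.1. With no filter 9 were higher on day 4 in W34/70 9.7. With the compared groups alone 8 were, 2 were lower in minimal medium than on day 4 in CBS1538 11.1, and 1 strain difference in day 4 over day 2 was called. DESeq2 gave 11 lower in minimal medium than on day 2 in CBS1538 11.1. With the replicate block, whose numbers are not known to pair the cultures, the strain difference in minimal medium over day 4 gave 5. With that block, copies apart gave 2 higher on day 4 in W34/70 9.7. Its copy balance gave 0 and 6 in CBS1538 11.1 for day 4 and minimal medium over day 2. In W34/70 9.7 that balance gave 0 and 2 for day 4 over day 2 and minimal medium over day 4. Without the pair of libraries with few S. eubayanus chromosome VII counts the copy balance gave 8, 25 and 11 in W34/70 9.7, and 7 copies were lower in minimal medium than on day 4. With a mean of 100 counts it gave 2 in CBS1538 11.1 for minimal medium over day 4 and 5 in W34/70 9.7 for day 4 over day 2. The causes were not tested.

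Leaving out 1 library gave, for day 4 over day 2, 4 to 28 higher and 21 to 44 lower in CBS1538 11.1 and 3 to 11 higher in W34/70 9.7. Lower genes in minimal medium than on day 2 were 4 to 9 in CBS1538 11.1 and 5 to 8 in W34/70 9.7, and than on day 4 they were 0 to 1 and 0 to 2. Strain differences were 2 to 7, 6 to 14 and 5 to 8 for day 4 over day 2, minimal medium over day 2 and minimal medium over day 4, and genes lower in W34/70 9.7 on day 4 were 4 to 7. Copy balance calls were 0 to 4 and 5 to 10 in CBS1538 11.1 for day 4 and minimal medium over day 2, and 0 to 2, 5 to 11 and 1 to 3 in W34/70 9.7. Of 1633 alternative values for single genes, 56 lost a call and 14 gained one, and 0 of the called changes turned to the other direction. Among the calls lost were both falls of RPL22B against day 2 in CBS1538 11.1, which has no counts of it without day 2 replicate 2.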
